A study of Capra hircus with 9 samples.

Results

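Genes for 9 amino acid transporters were followed in the mammary gland of Laoshan dairy goats, chosen by symbol out of 23499 genes with a value. The choice named 10 genes, which were SLC7A5, SLC7A8, SLC7A7, SLC3A2, SLC1A5, SLC1A1, SLC38A2, SLC38A3, SLC7A1 and SLC36A1, and the last of these was not analysed here. Whole mammary tissue was taken at slaughter from 9 healthy goats of one farm, all in the third parity and 4 years old on average. There were 3 goats in late lactation (LL, 240 days after kidding), 3 in the dry period (DP, 300 days after kidding) and 3 in late gestation (LG, 140 days after mating), with 1 library from each goat and different goats at each stage. The stage of the gland was the only difference between groups that the labels give, and all goats were under the same feeding and management.

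Milk protein is built in mammary epithelial cells from amino acids that transporters take up from blood. The transporters fall into types by what they carry. SLC3A2 is a heavy chain with no transport path of its own, which brings light chains such as SLC7A5, SLC7A8 and SLC7A7 to the cell surface, where they exchange one amino acid for another. SLC1A1, SLC38A2 and SLC38A3 carry amino acids together with sodium and so can accumulate them. SLC1A5 also depends on sodium but exchanges one neutral amino acid for another, and SLC7A1 takes up arginine and lysine.

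Values were read as FPKM, fragments per kilobase of transcript relative to all mapped fragments, so levels can be compared between genes of different length. The 10 highest genes of a library held 80.6% to 86.0% of its FPKM in LL and 53.6% to 58.5% in DP and LG, which leaves a smaller part of the FPKM to all other genes in LL. Each library was therefore divided by a median-ratio scaling factor (0.498 to 0.606 for LL, 1.44 to 1.53 for DP and 1.198 to 1.31 for LG), and such values are called scaled FPKM. Log2 fold changes are differences of log2(scaled FPKM + 1), and limma with Benjamini-Hochberg adjustment over the 14701 genes tested gave the adjusted p-values. A gene was called where its adjusted p was under 0.05 and its log2 fold change reached 1 in either direction. Without scaling, the median of all genes tested moved by 1.09 in DP against LL, by 0.93 in LG against LL and by -0.18 in LG against DP on the log2 scale. Calls over all genes were 2029 higher and 1292 lower in DP against LL (7979 and 369 without scaling), 1572 and 972 in LG against LL (6698 and 345), and 937 and 1011 in LG against DP (715 and 1577). Scaling instead to the summed luminal marker genes, an alternative added after the values were seen, gave 6794 higher and 448 lower in DP against LL and 277 higher and 4353 lower in LG against DP. That sum is led by ELF5 in LL and LG (scaled FPKM 439.8 to 675.6 for LL, 25.8 to 44.2 for DP and 408.5 to 497.8 for LG), so what luminal scaling changed in the results rests largely on this gene. With ELF5 left out of the sum, also an addition after the values were seen, 2118 genes were higher and 1261 lower in DP against LL and 871 higher and 1133 lower in LG against DP, and each of the 9 transporters kept its calls. FPKM hold no read counts, so the depth behind a value is not known and no counting error is given.

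SLC7A5, SLC1A1, SLC1A5, SLC38A3 and SLC7A1 fell from LL to DP, and no transporter of the 9 was called higher, although SLC7A7 was called higher without scaling and with luminal scaling. The background in this comparison was 22.6% of all genes tested called in either direction, 13.8% called higher and 8.79% called lower. The median log2 fold change of the 9 genes was -2.06, beside 0.0041 over all genes tested, and -0.76 beside 1.09 without scaling. Counted at a limma adjusted p under 0.05 alone, 1 of the 9 was higher and 5 were lower. Over the 14701 genes tested, 4152 were higher and 4207 lower at that threshold. In LG against LL, SLC7A5, SLC1A1 and SLC7A1 were lower, 3 of 9 against 17.3% of all genes tested called and 6.61% called lower, and the median was -0.86 beside 0.019 over all genes, or 0.29 beside 0.93 without scaling. None was called higher in LG than in LL. At a limma adjusted p under 0.05 alone 0 were higher and 7 lower, against 3760 and 3623 of the 14701 genes tested. Between DP and LG, SLC1A1, SLC1A5 and SLC38A3 were higher in LG and SLC7A7 was lower, which is 4 of 9 against 13.3% of all genes called in either direction, 6.37% higher and 6.88% lower. The median there was 0.11, beside 0.0083 over all genes. In scaled FPKM the libraries of DP and LL did not overlap for 8 of the 9 genes (1 higher and 7 lower in DP), against 65.9% of all genes tested. As deposited, 4 were higher (SLC7A8, SLC3A2, SLC38A2 and SLC7A7) and 4 lower (SLC7A5, SLC1A5, SLC1A1 and SLC38A3) without overlap. For LG and LL in scaled FPKM, 0 were higher and 8 lower without overlap, against 61.1% of all genes without overlap, 31.0% higher and 30.2% lower, whereas as deposited 3 were higher (SLC7A8, SLC1A5 and SLC7A7) and 2 lower (SLC7A5 and SLC1A1). For LG and DP, on either scale, 3 were higher and 1 lower without overlap, against 47.9% of all genes in scaled FPKM. No share of all genes without overlap is given for the deposited scale. There the median of all genes moved by 1.09 in DP and by 0.93 in LG against LL. The counts as deposited thus have no background and are not read as a result.

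**Figure D1:**
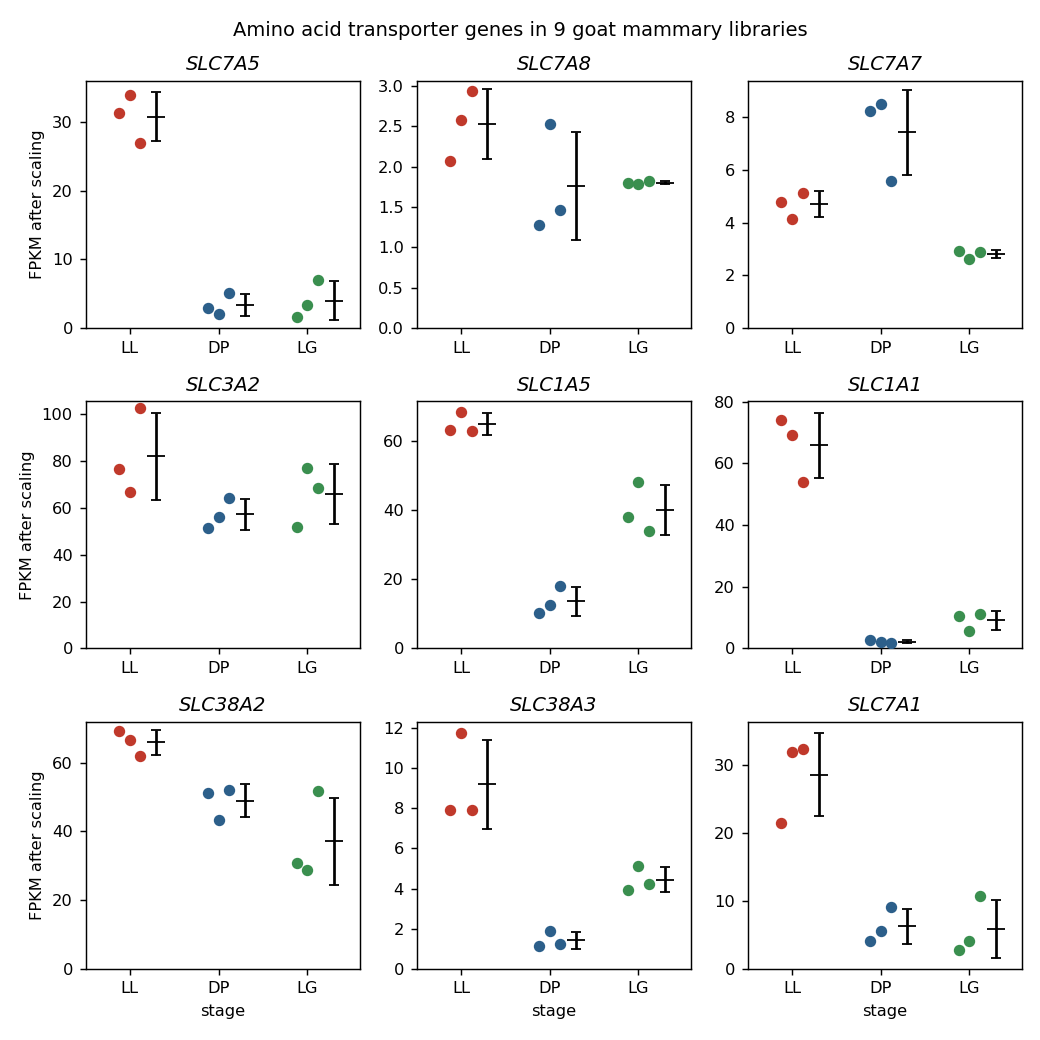
FPKM after scaling of the 9 transporter genes (vertical axes, each gene on its own linear scale from 0) in the 3 libraries each of LL, DP and LG (horizontal axis), with points for libraries and bars for the mean ± SD. In LL goats SLC7A5 lay at 27.0 to 34.0, and at 1.55 to 7.02 in DP and LG, whereas SLC1A5 lay at 34.0 to 48.0 in LG and 10.1 to 18.1 in DP.

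Among the light chains, SLC7A5 was high in LL and low in both other stages. It encodes LAT1, which brings leucine and other large neutral amino acids into cells. The gene (identifier 102186985) lies on chromosome 18 from 14698040 to 14726715 on the minus strand. Its scaled FPKM was 31.4, 34.0 and 27.0 in LL goats, 2.88, 1.998 and 5.12 in DP goats, and 1.55, 3.39 and 7.02 in LG goats. Every LL library thus stood above every DP and LG library, and DP and LG overlapped. The values as deposited were 16.9 ± 1.67 FPKM for LL, 4.88 ± 2.28 for DP and 5.09 ± 3.77 for LG (SD, n = 3 each), so the order of LL over the other stages was there before scaling. The log2 fold change was -2.93 in DP against LL (SE 0.38, limma adjusted p = 0.000196) and -2.82 in LG against LL (adjusted p = 0.000339). Between LG and DP it was 0.11, with a 95% confidence interval of -0.74 to 0.97 (limma adjusted p = 0.845), and its sign turned without scaling (-0.07) and with luminal scaling (-0.66). The third library stood highest for this gene in both DP and LG.

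SLC7A8, the second light chain for neutral amino acids (LAT2), was the least abundant of the 9 genes in LL and LG. It (102173746) is on chromosome 10 from 79692546 to 79745185 on the minus strand. Its scaled FPKM was 2.07, 2.59 and 2.94 in LL goats, 1.28, 2.53 and 1.47 in DP goats, and 1.80, 1.79 and 1.83 in LG goats. The LG libraries were close to each other and fell inside the range of DP. As deposited the means ran the other way, at 1.41 ± 0.38 FPKM for LL, 2.57 ± 0.93 for DP and 2.25 ± 0.13 for LG (SD, n = 3). SLC7A8 was not called in any comparison, with log2 fold changes of -0.38 in DP against LL (SE 0.17, limma adjusted p = 0.0827), -0.33 in LG against LL (adjusted p = 0.137) and 0.05 in LG against DP (adjusted p = 0.842). Without scaling these were 0.55, 0.44 and -0.10, so no direction can be given for it.

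SLC7A7 had its highest values in DP, unlike SLC7A5. It encodes y+LAT1, which exchanges cationic amino acids such as arginine for neutral ones, and macrophages are known to express it as well as epithelia. Its position (102179479) is chromosome 10, 79400479 to 79434784, minus strand. Scaled FPKM was 4.80, 4.16 and 5.14 in LL goats, 8.24, 8.51 and 5.59 in DP goats, and 2.91, 2.62 and 2.89 in LG goats. The 3 stages did not overlap, with DP highest and LG lowest. Deposited values were 2.6 ± 0.44, 10.97 ± 2.54 and 3.50 ± 0.29 FPKM (SD, n = 3) in LL, DP and LG. It fell by 1.13 on the log2 scale in LG against DP (SE 0.15, limma adjusted p = 0.00058). In DP against LL the log2 fold change was 0.55 (limma adjusted p = 0.0125), below the size needed for a call, and it was called at 1.72 without scaling and at 1.54 with luminal scaling. LG against LL gave -0.58 (limma adjusted p = 0.0111), which turned to 0.33 without scaling.

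The summed scaled FPKM of 9 leukocyte markers was 46.9 to 61.0 for LL, 100.7 to 144.2 for DP and 36.5 to 51.1 for LG, highest in DP as SLC7A7 was. All 9 markers were above 0 in every library. Of the 8 tested, 4 were called higher in DP than in LL, against 13.8% of all genes tested. In LG against DP 6 were called lower, against 6.88% of all genes, and CD3D and CD3E were not called. In LG against LL, CD14 and CD68 were called lower and CD3D was called higher. Other cell types shared parts of this order. Summed scaled FPKM of 6 fibroblast markers was 502.5 to 2392 for DP and 211.7 to 323.7 for LL. For 6 endothelial markers it was 62.6 to 86.5 for LG, below 109.2 to 138.2 for LL and 128.6 to 199.0 for DP. Of the 6 fibroblast markers 5 were called higher in DP than in LL, and no endothelial marker was. In LG against DP 2 markers of each of these lists were called lower. The part of any of these cell types in the SLC7A7 result was not tested. In whole tissue, fewer cells of a type and less RNA per cell cannot be told apart.

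The heavy chain gene SLC3A2 had the highest mean FPKM of the 9 genes at every stage and was not called in any comparison. It encodes the CD98 heavy chain and lies on chromosome 29 from 41488422 to 41519493 on the plus strand (102187568). Its scaled FPKM was 76.6, 66.7 and 102.8 in LL goats, 51.2, 56.2 and 64.1 in DP goats, and 51.8, 77.1 and 68.3 in LG goats. The 3 DP libraries lay below the 3 LL libraries, and LG overlapped both. As deposited, SLC3A2 measured 45.8 ± 14.3 FPKM for LL, 83.8 ± 7.42 for DP and 82.3 ± 17.7 for LG (SD, n = 3). The log2 fold change was -0.50 in DP against LL (SE 0.21, limma adjusted p = 0.0683), -0.31 in LG against LL (adjusted p = 0.247) and 0.19 in LG against DP (adjusted p = 0.525). The first of these became 0.90 without scaling, 0.21 with quantile normalization and 0.64 with luminal scaling, so the direction of SLC3A2 depended on the scaling.

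Ratios of genes within a library do not depend on the scaling. The FPKM ratio of SLC7A5 to SLC7A8 was 15.2, 13.2 and 9.17 in LL goats, 2.25, 0.79 and 3.49 in DP goats, and 0.87, 1.89 and 3.85 in LG goats. SLC7A5 thus exceeded SLC7A8 many times over in each LL library, and in 1 DP and 1 LG library it was below SLC7A8. The geometric mean was 12.2 in LL, 1.84 in DP and 1.85 in LG, a log2 difference of -2.73 for each of DP and LG against LL. With heavy chain over light chain, SLC3A2 to SLC7A5, the ratio was 2.44, 1.96 and 3.81 in LL goats, 17.8, 28.1 and 12.5 in DP goats, and 33.4, 22.8 and 9.73 in LG goats. All 3 LL libraries were below all DP and LG libraries, with log2 differences of 2.81 for DP and 2.89 for LG against LL. For each of these 4 differences the two-sided exact permutation p was 0.1, the smallest that 3 against 3 libraries can give, and 0.15 after Benjamini-Hochberg adjustment over 6 tests. Between LG and DP the log2 differences were 0.0068 and 0.079 (exact permutation p = 1 for each).

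Of all light chains that pair with SLC3A2, 6 were summed, namely SLC7A5, SLC7A6, SLC7A7, SLC7A8, SLC7A10 and SLC7A11. This set was picked by role after the values had been seen. As deposited, the sum was 22.2 to 26.1 FPKM for LL, 21.2 to 25.1 for DP and 14.0 to 27.5 for LG, so the stages overlapped. In scaled FPKM it was 40.5 to 47.2 for LL, 14.7 to 16.4 for DP and 11.7 to 21.0 for LG, with LL above both. Its make-up, which no scaling changes, differed between the stages. SLC7A5 held 69.7% ± 2.78 (SD, n = 3) of the sum for LL, 21.8% ± 11.4 for DP and 23.2% ± 10.1 for LG. SLC7A7 held 10.8% ± 1.94 for LL, 48.1% ± 9.27 for DP and 18.8% ± 5.65 for LG, which made it the leading light chain gene in every DP library. SLC7A6, which encodes y+LAT2, a close relative of SLC7A7, held 4.92% ± 0.94 for LL, 9.57% ± 2.84 for DP and 43.6% ± 2.17 for LG, and led in every LG library. SLC7A6 was higher in LG than in DP, with a log2 fold change of 1.65 (SE 0.21, limma adjusted p = 0.000423), and higher in LG than in LL at 1.29 (adjusted p = 0.000948). With luminal scaling LG against DP was 0.95 and lost its call.

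**Figure D2:**
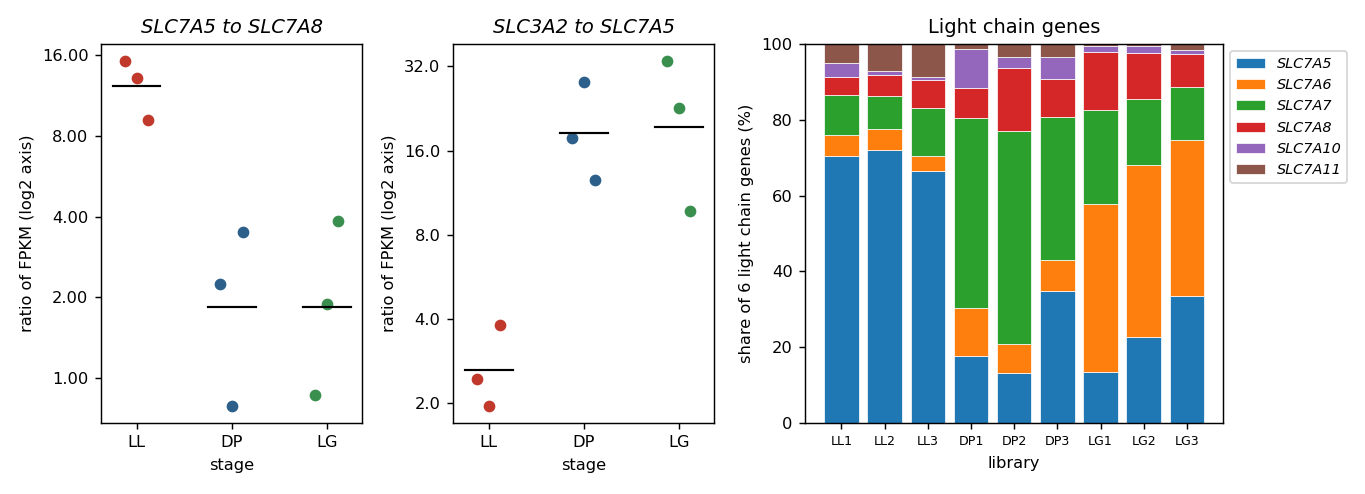
Left and middle, FPKM ratios of SLC7A5 to SLC7A8 and of SLC3A2 to SLC7A5 in each library (points, log2 axes) with the geometric mean of each stage (lines). Right, the share (%) of each of 6 light chain genes in their summed FPKM, by library: SLC7A5 held 66.6% to 72.0% in LL, SLC7A7 held 37.9% to 56.1% in DP and SLC7A6 held 41.2% to 45.3% in LG.

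SLC1A5 was high in LL, low in DP and high again in LG. It encodes ASCT2, a sodium-dependent exchanger of neutral amino acids best known for glutamine. The gene (102176550) is on chromosome 18 from 54905810 to 54916707 on the minus strand. Its scaled FPKM was 63.2, 68.4 and 62.8 in LL goats, 10.1, 12.6 and 18.1 in DP goats, and 37.9, 48.0 and 34.0 in LG goats. The stages did not overlap, and LG lay between DP and LL. The deposited values were 35.8 ± 3.73 FPKM for LL, 19.8 ± 5.49 for DP and 49.8 ± 8.25 for LG (SD, n = 3). From LL to DP, SLC1A5 fell by 2.21 in log2 fold change (SE 0.21, limma adjusted p = 3.25e-05) and rose by 1.51 in LG against DP (adjusted p = 0.000679). LG against LL gave -0.70 (adjusted p = 0.0208), short of a call, and 0.46 without scaling. The fall to DP was also short of a call without scaling (-0.85), and the rise to LG was 0.60 (adjusted p = 0.107) with luminal scaling.

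Of the 9 genes, SLC1A1 had the largest fall. It encodes EAAT3, which takes up glutamate and aspartate. Its locus (102176416) is chromosome 8, 39770036 to 39845247, minus strand. In LL its scaled FPKM was 74.2, 69.3 and 54.0, within reach of the SLC1A5 values, against 2.70, 2.16 and 1.65 in DP and 10.4, 5.65 and 11.2 in LG. No stages overlapped. As deposited it was 36.0 ± 2.91 FPKM for LL, 3.20 ± 0.88 for DP and 11.4 ± 4.004 for LG (SD, n = 3). The log2 fold change was -4.40 in DP against LL (SE 0.24, limma adjusted p = 2.17e-06), -2.76 in LG against LL (adjusted p = 2.94e-05) and 1.64 in LG against DP (adjusted p = 0.000953). The falls were called under every scaling tried, and the rise from DP to LG was 0.89 (adjusted p = 0.0214), short of a call, with luminal scaling.

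SLC38A3 had the same order of stages as SLC1A5 at a lower level. It encodes SNAT3, a transporter of glutamine, histidine and asparagine, and lies on chromosome 22 from 50212955 to 50227828 on the minus strand (102174074). Scaled FPKM was 7.94, 11.8 and 7.91 in LL goats, 1.13, 1.89 and 1.22 in DP goats, and 3.94, 5.13 and 4.24 in LG goats. LL was highest, LG was intermediate and DP was lowest, with no overlap. Its deposited values were 5.08 ± 1.31, 2.07 ± 0.57 and 5.54 ± 0.81 FPKM (SD, n = 3) in LL, DP and LG. SLC38A3 fell by 2.07 in DP against LL (SE 0.18, limma adjusted p = 1.85e-05) and rose by 1.18 in LG against DP (adjusted p = 0.00107). LG against LL gave -0.89 (adjusted p = 0.0029), which was not called and was 0.12 without scaling. The fall to DP was -0.98 without scaling and the rise to LG was 0.54 with luminal scaling, both short of a call.

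SLC38A2, the other sodium-coupled neutral transporter of this family (SNAT2), was abundant at all stages. Cells that lack amino acids are known to raise it. The gene (102191114) lies on chromosome 5 from 33397993 to 33412421 on the plus strand. Its scaled FPKM was 69.3, 66.5 and 61.9 in LL goats, 51.2, 43.4 and 52.1 in DP goats, and 30.7, 28.7 and 51.7 in LG goats. LL lay above DP and LG, and 1 LG library stood with the DP libraries. The deposited values were 36.3 ± 1.58 FPKM for LL, 72.0 ± 8.26 for DP and 46.7 ± 18.4 for LG (SD, n = 3). It was not called in any comparison, at -0.43 in DP against LL (SE 0.22, limma adjusted p = 0.118), -0.86 in LG against LL (adjusted p = 0.00877) and -0.44 in LG against DP (adjusted p = 0.146). The first became 0.96 without scaling, 0.24 with quantile normalization and 0.71 with luminal scaling, and the second became 0.29 without scaling. LG against LL was called when the third LG library was left out (-1.12), and LG against DP was called with luminal scaling (-1.38).

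SLC7A1 encodes CAT1, which takes up arginine and lysine without sodium. Its stage pattern was that of SLC7A5, high in LL and low in both other stages. The gene (102187237) is on chromosome 12 from 55715390 to 55777144 on the minus strand. Its scaled FPKM was 21.5, 31.9 and 32.4 in LL goats, 4.08, 5.63 and 9.13 in DP goats, and 2.72, 4.03 and 10.7 in LG goats. LL did not overlap the other stages, which overlapped each other, and the third library was again the highest in both DP and LG. As deposited, SLC7A1 measured 16.0 ± 4.66 FPKM for LL, 9.17 ± 3.57 for DP and 7.42 ± 5.78 for LG (SD, n = 3). It fell by 2.06 in DP against LL (SE 0.40, limma adjusted p = 0.00215) and by 2.27 in LG against LL (adjusted p = 0.00151). LG against DP gave -0.22, with a 95% confidence interval of -1.12 to 0.68 (adjusted p = 0.712), and -1.05 (called) with luminal scaling. Without scaling the difference between DP and LL was -0.76 and was not called (adjusted p = 0.121).

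**Figure D3:**
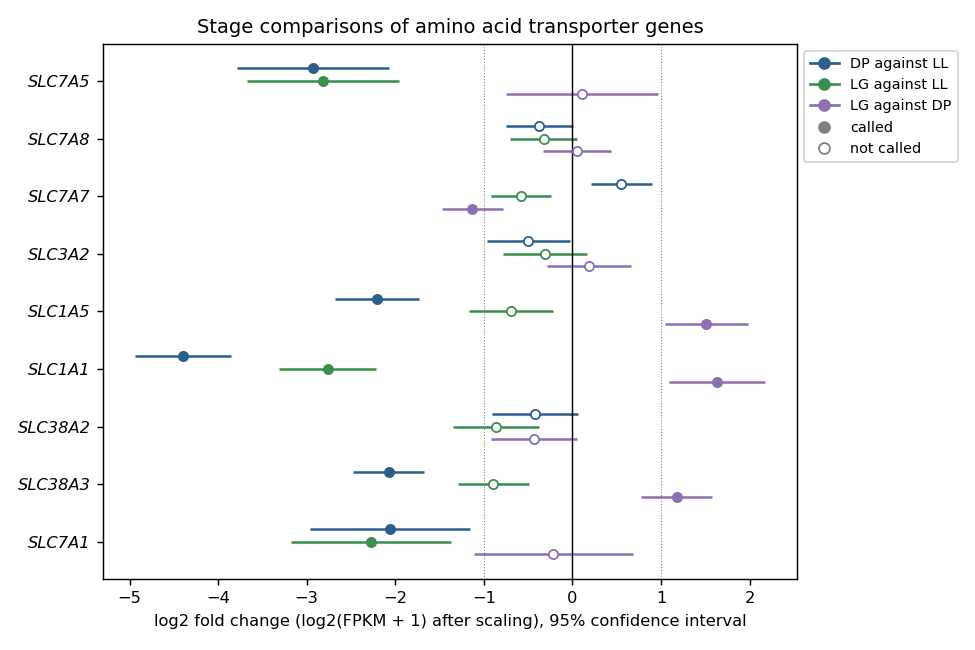
Log2 fold changes of log2(scaled FPKM + 1) for the 9 transporter genes (rows) in DP against LL, LG against LL and LG against DP, with 95% confidence intervals from limma, filled where called and with dotted lines at 1 and -1. SLC7A5 and SLC7A1 lay below -2 against LL in both stages and within 0.22 of 0 between LG and DP, while SLC1A1, SLC1A5 and SLC38A3 lay above 1 in LG against DP.

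Leaving out each library in turn gave 5 called genes every time in DP against LL, 3 or 4 in LG against LL and 4 every time in LG against DP. The 5 genes called in DP against LL were the same with quantile normalization and with luminal scaling, which also called SLC7A7 higher. Without scaling, SLC1A1 and SLC7A5 were called lower there and SLC7A7 higher. LG against LL gave SLC1A1, SLC7A5 and SLC7A1 under each scaling. In LG against DP the 4 calls were the same without scaling and with quantile normalization, but luminal scaling gave 0 higher and 3 lower, which were SLC38A2, SLC7A1 and SLC7A7. The study's own list of metabolism genes, chosen on libraries that include these, holds SLC7A5, SLC1A1, SLC1A5 and SLC38A3, so their place on that list is not independent evidence of a direction. The study's discussion also names SLC7A7 among amino acid transport genes with levels that differed by stage. It rests on the same libraries and gives no direction for SLC7A7.

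The sum over all 9 genes was nearly equal between the LL goats, at 350.9 to 356.8 scaled FPKM, and was 132.8 to 158.4 in DP and 143.7 to 192.0 in LG. In FPKM as deposited the stages overlapped, at 174.7 to 216.0 for LL, 194.5 to 228.1 for DP and 172.0 to 252.2 for LG. The make-up of this sum, which no scaling changes, differed between stages. In LL, SLC3A2 (23.1% ± 5.14, SD, n = 3), SLC38A2 (18.6% ± 1.19), SLC1A1 (18.6% ± 3.10) and SLC1A5 (18.3% ± 0.87) held similar shares. In DP, SLC3A2 (40.2% ± 1.56) and SLC38A2 (34.6% ± 3.48) held most of it, and SLC1A1 was down to 1.56% ± 0.50. In LG, SLC3A2 held 38.5% ± 4.53, SLC1A5 23.8% ± 5.26 and SLC38A2 21.5% ± 5.34. SLC7A5 went from 8.69% ± 1.03 in LL to 2.29% ± 0.88 in DP and 2.22% ± 1.32 in LG.

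**Figure D4:**
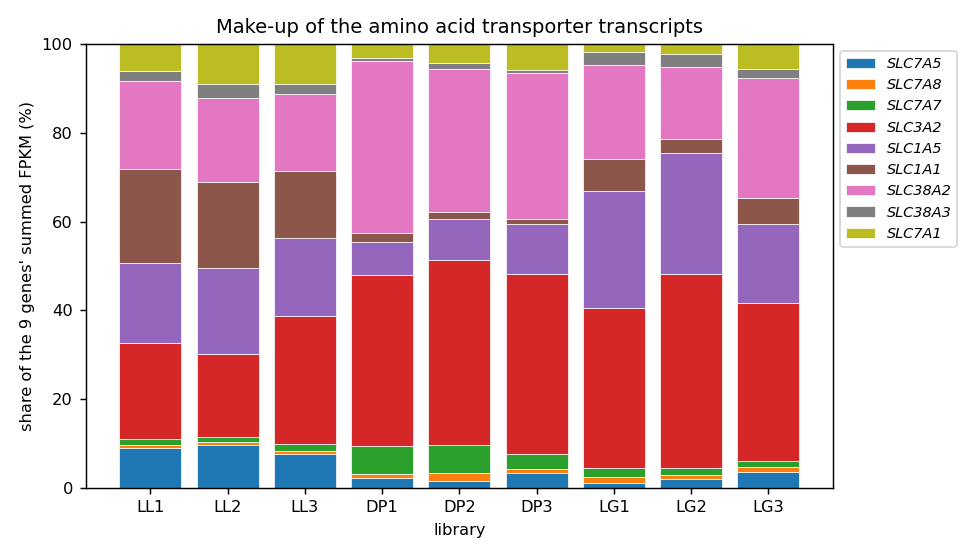
Share (%) of each of the 9 transporter genes in their summed FPKM (vertical axis, stacked) by library (horizontal axis). SLC1A1 held 15.2% to 21.2% for LL, 1.04% to 2.03% for DP and 3.20% to 7.25% in LG, and SLC1A5 held 7.59% to 11.4% in DP and 17.7% to 27.2% in LG.

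Ordered by mean FPKM within a stage, the genes in LL ran SLC3A2, SLC38A2, SLC1A1, SLC1A5, SLC7A5, SLC7A1, SLC38A3, SLC7A7 and SLC7A8. The first 4 overlapped from one to the next, as did SLC7A5 and SLC7A1, and the other neighbours did not. In DP, SLC3A2, SLC38A2 and SLC1A5 came first without overlap, though SLC3A2 and SLC38A2 were level in DP1, at 78.24 and 78.23 FPKM. The other genes followed as SLC7A7, SLC7A1, SLC7A5, SLC1A1, SLC7A8 and SLC38A3, each overlapping the next. In LG the order was SLC3A2, SLC1A5, SLC38A2, SLC1A1, SLC7A1, SLC38A3, SLC7A5, SLC7A7 and SLC7A8. SLC1A5 and SLC38A2 overlapped, as did the neighbours from SLC1A1 to SLC7A7, and the other neighbours did not. Some genes further apart overlapped too. SLC38A2 reached 67.99 FPKM, above the lowest SLC3A2 library at 62.06, and the lowest SLC7A5 library (1.86) was below the SLC7A8 libraries (2.15 to 2.40).

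Epithelial and other markers were read beside these results. All 7 luminal markers, KRT7, KRT8, KRT18, KRT19, EPCAM, CDH1 and ELF5, were above 0 in every library. Their summed scaled FPKM was 882.8 to 1151 for LL, 345.7 to 650.0 for DP and 835.1 to 1000.0 for LG. The low sum in DP was that of ELF5, since the other 6 markers summed to 406.1 to 475.5 for LL, 319.9 to 605.8 for DP and 384.3 to 502.4 for LG, with all stages overlapping. Of the 7, only ELF5, a transcription factor of secretory epithelium, was called, at -4.19 in DP against LL and 3.82 in LG against DP. The 6 fibroblast markers summed to 211.7 to 323.7 for LL, 502.5 to 2392 for DP and 521.4 to 954.4 for LG. For the 6 endothelial markers the sums were 109.2 to 138.2, 128.6 to 199.0 and 62.6 to 86.5, and for the 6 basal markers 164.4 to 224.4, 133.6 to 443.2 and 214.0 to 291.9. The 4 adipocyte markers summed to 2.71 to 3.72 for LL, 2.57 to 20.4 for DP and 1.14 to 1.69 for LG. Among these lists OXTR (basal) and LEP (adipocyte) were at 0 in at least 1 library. The part of the mix of cells in the transporter results was not tested.

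Other amino acid transporters at the cell surface and in lysosomes did not share one direction. Of 32 listed, SLC7A9, SLC7A13 and SLC15A2 were not analysed here, and 23 passed the filter on low values. In DP against LL, SLC38A7 and SLC43A2 were higher and SLC1A2, SLC1A4, SLC6A14, SLC7A11 and SLC7A4 were lower, 7 of 23 against the 22.6% of all genes called, with a median log2 fold change of 0.094 over the 23. In LG against LL, 6 were higher and 5 lower (median -0.30), against 17.3% of all genes called in either direction. LG against DP gave 6 higher and 3 lower (median -0.10), against 13.3% of all genes. SLC15A1 is among the higher genes in both comparisons with LG, and it passed the filter on low values only through its LG libraries. SLC7A11, lower in DP and LG than in LL, passed only through its LL libraries. Their calls are counted here but are no evidence of a direction. The split in DP against LL became 9 higher and 3 lower without scaling and 8 and 3 with luminal scaling. In LG against LL it became 7 and 2 without scaling, and in LG against DP 3 and 7 with luminal scaling.

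The largest difference among them was that of SLC7A4, a relative of the cationic transporters whose own substrate is not settled. Its FPKM as deposited was 76.5, 109.1 and 66.2 in LL goats, 1.97, 1.52 and 0.93 in DP goats, and 5.53, 7.47 and 11.5 in LG goats. No library of one stage overlapped another stage, and in LL it was above every one of the 9 transporters. Its log2 fold change was -6.25 in DP against LL (SE 0.26, limma adjusted p = 3.5e-07), -4.36 in LG against LL (adjusted p = 3.54e-06) and 1.88 in LG against DP (adjusted p = 0.00062). SLC1A2, which encodes the glutamate transporter EAAT2, was deposited at 10.6, 11.3 and 9.72 FPKM in LL goats, 0.51, 0.29 and 0.23 in DP goats, and 10.1, 15.9 and 15.8 in LG goats. It fell by 4.03 in DP against LL (adjusted p = 4.14e-07) and rose by 3.28 in LG against DP (adjusted p = 4.96e-06), while LG against LL gave -0.75 (adjusted p = 0.00533, not called) and 0.34 without scaling. Its glutamate-carrying relative SLC1A1, which shares the low in DP, was called lower in LG than in LL, and the difference between the pair was not tested. SLC6A14, which carries neutral and cationic amino acids with sodium and chloride, fell by 3.33 in DP (adjusted p = 2.13e-05) and by 1.57 in LG (adjusted p = 0.00211) against LL, from 34.2 to 35.8 FPKM as deposited in LL to 6.98 to 9.04 in DP and 16.7 to 46.8 in LG. It rose by 1.76 in LG against DP (limma adjusted p = 0.00181), which was 0.91 and not called with luminal scaling, and without scaling its LG against LL value was -0.42 (adjusted p = 0.233).

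ATF4 is a transcription factor made when amino acids are short or the endoplasmic reticulum is stressed, and its known targets include enzymes of amino acid synthesis as well as SLC7A5, SLC7A1, SLC38A2, SLC3A2 and SLC7A11. Of 10 genes, namely ATF4 and 9 targets that are not transporters, 8 were lower in DP than in LL and the same 8 were lower in LG than in LL. They were ATF4, ASNS, CHAC1, DDIT3, PHGDH, PSAT1, SESN2 and TRIB3, while CEBPB and VLDLR were not called. CHAC1 passed the filter on low values only through its LL libraries, so its calls are no evidence of a direction. The share of all genes called lower was 8.79% in DP against LL and 6.61% in LG against LL. The medians were -2.07 and -2.10, and without scaling 5 were lower in each comparison, with CEBPB and VLDLR called higher in LG against LL. None was called between LG and DP with limma. At a limma adjusted p under 0.05 alone 3 were higher and 0 lower there, against 2699 and 2413 of the 14701 genes tested. TRIB3, a pseudokinase that holds back ATF4, was deposited at 9.64, 22.2 and 16.6 FPKM in LL goats, 0.85, 0.98 and 2.22 in DP goats, and 0.16, 1.02 and 1.99 in LG goats. Its log2 fold change was -3.94 in DP against LL (limma adjusted p = 1.64e-05), -4.05 in LG against LL (adjusted p = 2.04e-05) and -0.12 in LG against DP (adjusted p = 0.813). As with SLC7A5, LL stood apart and DP and LG overlapped. Of the transporters named as targets, SLC7A5 and SLC7A1 were called lower in DP and LG than in LL. SLC38A2 and SLC3A2 were not called in any comparison. The part of ATF4 in the transporter results was not tested.

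ASNS makes asparagine and PSAT1 is an enzyme of serine synthesis. ASNS was deposited at 15.6, 18.9 and 16.9 FPKM in LL goats, 3.29, 4.95 and 5.80 in DP goats, and 2.17, 1.98 and 3.93 in LG goats. Against LL its log2 fold change was -2.96 in DP (SE 0.21, limma adjusted p = 6.64e-06) and -3.38 in LG (adjusted p = 4.67e-06), and LG against DP gave -0.42 (adjusted p = 0.147), or -1.15 (called) with luminal scaling. PSAT1 was higher than ASNS at each stage, at 68.3, 83.0 and 99.4 FPKM as deposited in LL goats, 13.7, 15.9 and 12.3 in DP goats, and 24.3, 19.4 and 29.3 in LG goats. It fell by 3.85 in DP (adjusted p = 5.03e-07) and by 2.90 in LG (adjusted p = 3.3e-06) against LL. LG against DP gave 0.95 for PSAT1 (limma adjusted p = 0.00242), just under the size needed for a call.

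**Figure D5:**
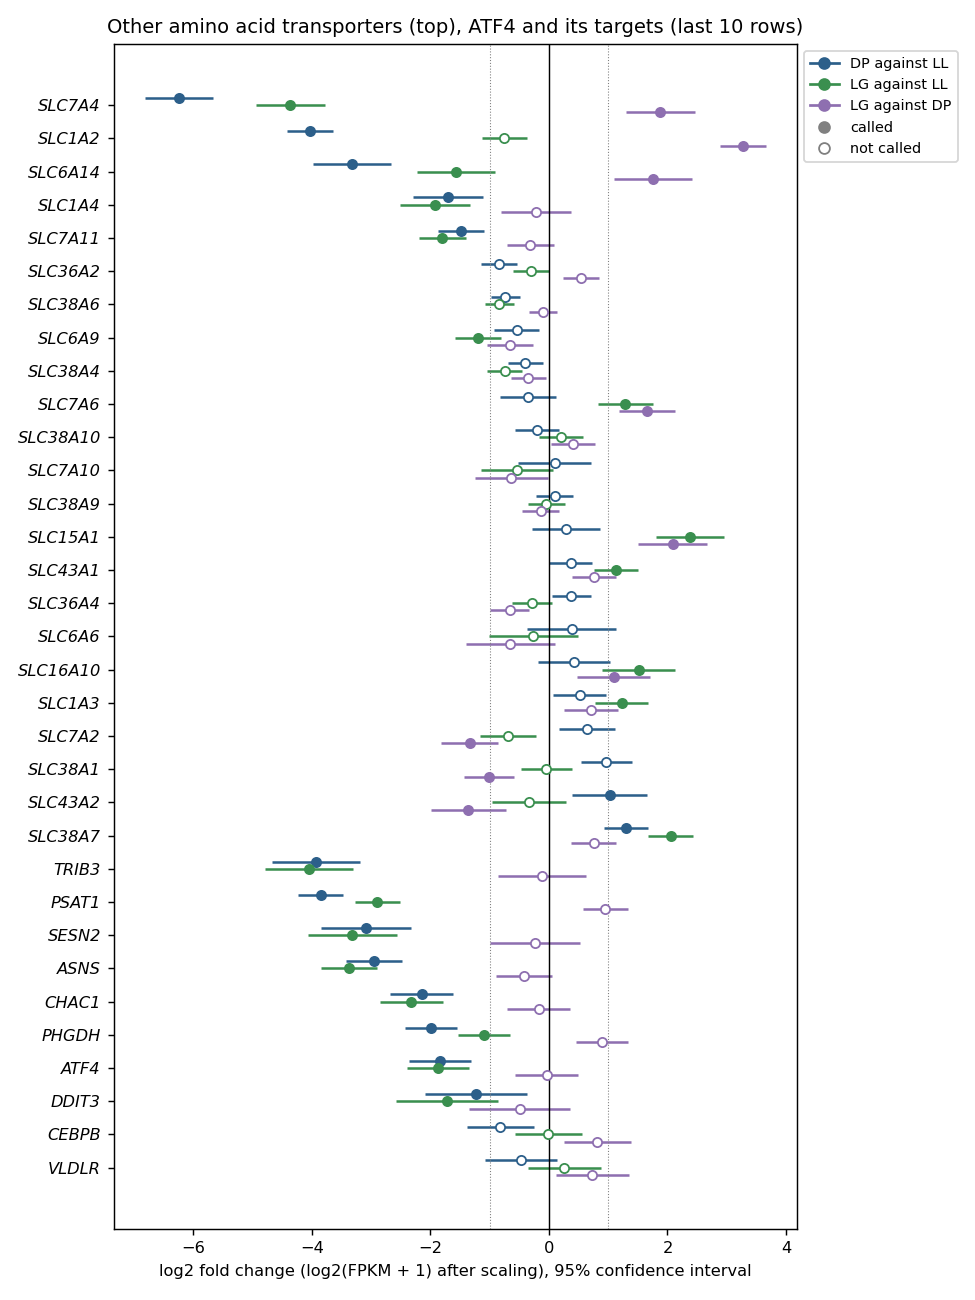
Log2 fold changes of log2(scaled FPKM + 1) with 95% confidence intervals from limma for 23 other amino acid transporter genes and, in the last 10 rows, ATF4 and 9 of its targets, in DP against LL, LG against LL and LG against DP, filled where called. SLC7A4, SLC1A2 and SLC6A14 reached -6.25, -4.03 and -3.33 in DP against LL, and the filled points of the last 10 rows all lay below -1. SLC15A1, SLC7A11 and CHAC1 passed the filter on low values only through the stage where they were highest.

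Genes with a stage pattern nearest to that of a transporter were found by the root mean square difference of log2 values over the 9 libraries, each gene centred on its mean. For SLC7A5 these were ANKRD22 (0.26), ADM2 (0.41) and PMVK (0.41), beside a median of 1.49 over all genes tested. For SLC1A5 they were MDGA2 (0.18), SLC35A2 (0.18) and UGP2 (0.20), beside a median of 1.004, and UGP2 was deposited at 109.5 ± 10.6 FPKM for LL, 67.1 ± 25.7 for DP and 176.8 ± 16.2 for LG (SD, n = 3). For SLC7A7 they were IL18R1 (0.11), TRAM2 (0.14) and RUNX1T1 (0.15), beside a median of 0.62. All 3 of the last were at 0.28 to 0.45 FPKM on average in LL and LG and at 2.47 to 2.81 in DP. At such levels they passed the filter on low values through their DP libraries. The 1 added before taking log2 also shrinks differences between low values. Their closeness to SLC7A7 is thus set in part by the filter and the scale.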

How the data were processed

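RNA of 9 mammary samples was sequenced after TruSeq library preparation. The authors deposited 1 value per gene and library, read here as FPKM because the values carry decimals and sum to 601250.2 to 1157015 per library. The unit is not named with the values. The submitters' processing notes list FastQC, Trimmomatic, HISAT2, SAMtools and HTSeq, and the study's methods give StringTie for quantification. The starts and ends of all 23465 gene identifiers that matched the RefSeq gene table were those of assembly ARS1.2, and positions are given on it. No other gene overlapped any of the 9 transporter genes in that table.

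Scaling factors came from 15905 genes. Genes that reached 0.5 FPKM in 3 or more libraries were tested on log2(scaled FPKM + 1) with limma 3.58.1 (eBayes with trend, R 4.3.3), all 9 libraries in one fit. Ratios were compared with exact permutation tests (Python 3.11.15 with numpy 2.4.6), two-sided. On simulated data for DP against LL with 14701 genes, 77 of 100 genes changed by a log2 fold change of 1.5 and 97 of 100 changed by 3 were found, and 6 unchanged genes were called. The changed genes were drawn only from those with a mean log2 scaled FPKM above 3. The shares found thus do not cover lower genes such as SLC7A8, SLC7A7 and SLC38A3. The transporters and gene lists were chosen with earlier results of these data known. Besides every transporter, the 3 called genes furthest from 0 in log2 fold change were named from the other transporters and from the ATF4 list, and the 3 nearest patterns for SLC7A5, SLC1A5 and SLC7A7. SLC7A6 and the set of light chains were chosen after their values were seen. Each stage holds separate goats, so p-values measure the spread between goats.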

Additional observations from a re-analysis of the deposited data

How the results depend on the processing

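Without scaling 3 of the 9 transporters were called in DP against LL, and over all genes 8348 in DP against LL and 7043 in LG against LL. Without scaling 12 other transporters and 5 ATF4 genes were called in DP against LL. Luminal scaling gave 7242 genes in DP against LL, 4630 in LG against DP, 11 other transporters in DP against LL and 2 ATF4 genes in LG against DP. A pseudocount of 0.1 gave 11 other transporters in DP against LL, 2 ATF4 genes in LG against DP and 3912 genes in LG against LL. Adjusted p alone gave 7 transporters in LG against LL, 14 other transporters in DP against LL, 15 other transporters and 3 ATF4 genes in LG against DP, and 8359, 7383 and 5112 genes in the 3 comparisons.

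Signs turned without scaling for SLC7A5 in LG against DP (-0.070), SLC7A8 (0.55 and 0.44 for DP and LG against LL, -0.10 for LG against DP), SLC3A2 (0.90, 0.85 and -0.046 in the same order), SLC38A2 (0.96 and 0.29 for DP and LG against LL), and for LG against LL SLC1A5 (0.46), SLC7A7 (0.33), SLC38A3 (0.12) and SLC1A2 (0.34). Luminal scaling turned SLC7A5 (-0.66), SLC7A8 (-0.57) and SLC3A2 (-0.76) in LG against DP, and SLC7A8 (0.39), SLC3A2 (0.64) and SLC38A2 (0.71) in DP against LL. Quantile normalization turned SLC3A2 (0.21, 0.067 and -0.14 in the 3 comparisons), SLC38A2 (0.24 in DP against LL) and TRIB3 (0.14 in LG against DP). None of the main values that turned was called. The causes were not tested. Luminal scaling, and every alternative for the ATF4 genes, SLC1A2 and TRIB3, were chosen after seeing the data. The luminal values rest largely on ELF5, and with ELF5 left out of the sum no result turned or changed its side of the threshold.

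With each library left out, ATF4 genes called in LG against DP ranged from 0 to 2, and log2 differences in LG against DP from -0.31 to 0.52 for SLC7A5, -0.072 to 0.24 for SLC7A8, -0.69 to 0.13 for SLC7A1 and -0.39 to 0.19 for TRIB3. The log2 ratio differences there ranged from -0.60 to 0.55 for SLC7A5 to SLC7A8 and from -0.31 to 0.58 for SLC3A2 to SLC7A5. Same-numbered libraries correlated at -0.11 to 0.20 and come from different goats, so the numbers do not pair them. With a replicate block 5, 3 and 4 transporters and 3340, 2564 and 1986 genes were called in the 3 comparisons. The unknown depth leaves the counting error of low values such as SLC7A8 unknown.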

Other observations

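In DP the third library had the highest scaled FPKM for 5 of the 9 transporters (SLC1A5, SLC38A2, SLC3A2, SLC7A1 and SLC7A5) and for 7 of the 10 genes of the ATF4 list, against 38.7% of all genes tested. In LG the third library was the highest for 5 of the 9 (SLC1A1, SLC38A2, SLC7A1, SLC7A5 and SLC7A8) and for 6 of the 10, against 32.8% of all genes tested. In LL the third library was the highest for 4 of the 9 and 3 of the 10, against 40.7% of all genes tested. These are goats of different stages that share only a number.

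Among the other transporters, SLC15A1 and SLC43A1 had their highest values in LG and were picked here after their values were seen. They were not alone in this. In scaled FPKM the LG libraries of SLC7A6, SLC16A10, SLC38A7 and SLC1A3 also lay above all LL and DP libraries. SLC15A1, the PEPT1 carrier of small peptides, was listed at 0.01, 0.07 and 0.02 FPKM in LL goats, 0.83, 0.11 and 0.44 in DP goats, and 4.50, 9.41 and 4.02 in LG. It passed the filter on low values because of its LG libraries, so no test value is given for it. Its calls, counted among the other transporters, are no evidence of a direction. SLC43A1, which encodes LAT3, a carrier of leucine and related amino acids, was at 4.50, 5.16 and 5.41 FPKM in LL goats, 14.2, 21.1 and 18.4 in DP goats, and 26.5, 27.4 and 25.2 in LG. It was called in LG against LL at 1.13 (limma adjusted p = 0.000495) and not in LG against DP at 0.76 (adjusted p = 0.00619). Its LG libraries thus lay above all others, while SLC7A5, which carries some of the same amino acids, was lower in LG than in LL.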
